A study of Mus musculus with 3 samples.

Results

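The voltage-gated sodium and calcium channel genes are 29 of the 19640 genes counted in 3 coronal sections of the main olfactory bulb of C57BL/6J mice at 12 weeks of age. They were taken by gene symbol, as every symbol of the files of the form Scn with a number and a or b, Cacna1 with a letter from a to i or s, Cacna2d with 1 to 4, or Cacnb with 1 to 4. They fall into 7 sodium channel alpha subunits, 4 sodium channel beta subunits, 10 calcium channel alpha1 subunits, 4 alpha2delta subunits and 4 calcium channel beta subunits. The RNA was captured by its poly(A) tail on a high-density spot array, and each spot carries a named region in the deposited annotation. All 3 sections form 1 group with no treatment or genetic change named in the labels, and the labels do not say which mouse each came from. The p-values therefore measure the spread between these sections, which may be technical.

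Voltage-gated sodium channels open when the membrane depolarises and carry the rising phase of the action potential. Their alpha subunit forms the pore, and the beta subunits are small membrane proteins that alter gating and adhesion. Voltage-gated calcium channels turn the same depolarisation into calcium entry. Their alpha1 subunit forms the pore and sets the channel type, while alpha2delta and beta subunits bring it to the membrane and shape its opening. In the olfactory bulb, mitral and tufted cells are the output neurons, and granule cells are inhibitory neurons without an axon that release GABA from their dendrites when calcium enters.

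The channel genes summed to 1050, 1764 and 1390 counts in sections 1, 2 and 3, or 0.305%, 0.271% and 0.275% of all counts. Their counts lay on 1013, 1656 and 1296 spots, and no spot held more than 5 counts of a channel gene. Spots were therefore summed per section within each of 9 regions, from outside to inside the olfactory nerve layer (ONL), glomerular layer (GL), external plexiform layer (EPL), mitral layer (M/T), internal plexiform layer (IPL), outer and inner part of the granule cell layer (GCL-E, external, and GCL-I, internal), ependymal cell zone (E) and rostral migratory system (RMS). To carry more counts per sum, neighbouring regions were also joined into 4 zones. These are the outer zone (ONL and GL), the plexiform zone (EPL and M/T), the granule zone (IPL, GCL-E and GCL-I) and the core (E and RMS). Levels are CPM, the counts of a gene per 1000000 counts of the same sum. In these bulk sums, fewer cells of a type and less RNA per cell cannot be told apart.

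The marker genes followed the names of the regions for most lists. The 8 mitral and tufted cell genes summed to 3162 ± 1546 CPM (SD, n = 3) in the plexiform zone and 907 ± 346 CPM in the granule zone. The 8 granule cell genes summed to 8054 ± 323 CPM in the granule zone and 4239.9 ± 475 CPM in the outer zone. The 4 olfactory sensory axon genes stood at 1039 ± 170.2 CPM in the outer zone and 233 ± 53.4 CPM in the granule zone. Only 2 of the 4 ependymal genes were counted, at 18.6 ± 9.18 CPM in the core and 17.9 ± 15.5 CPM in the outer zone, so ependymal markers did not set the core apart.

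Of the 29 channel genes, 15 passed the filter on low counts in the zone fit and 13 in the region fit, and the 15 held 88.9% of all 4204 channel counts. A gene is called where the adjusted p of edgeR's quasi-likelihood test is under 0.05, with p-values adjusted over all genes tested. The zone fit gave 13 calls in 6 genes (Cacna1c, Cacna1d, Cacna1e, Cacnb3, Cacnb4 and Scn3a), and the region fit gave 4 calls, among them those of Cacna1e and Cacnb4. Calcium channel genes made up most of these calls, as they did of the channel genes tested. These calls were sensitive to the sections used. Without section 2 none of the 17 was kept with edgeR, although 22 zone values and 16 region values of channel genes had an unadjusted p under 0.05. Without section 3 the number kept was 2, without section 1 it was 10, with DESeq2 it was 3, and with no section term in the model it was 0. Calls over all genes fell as well. In the outer zone the main fit called 206 of all 3301 genes higher and 172 lower. These were 87 and 45 of 3268 genes without section 2, 77 and 69 with DESeq2, and 14 and 0 with no section term. With no filter on low counts the number kept was 4. Without spots within reach of another region (5 array positions) it was 3, namely Cacna1e in the granule zone and in the plexiform against the granule zone, and Scn3a in the core. The direction was the same in each of 181 values under the alternatives. These refit the same counts, or a part of them, for calls already made, and several calls share counts, as GL lies in the outer zone. An unchanged direction was therefore likely and is no separate support.

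In the outer zone 4 of 15 tested channel genes were called, all lower (Cacna1e, Cacnb3, Cacna1d and Scn3a), against 5.21% of all 3301 genes called lower. Their median log2 fold change against the other zones was -0.51, with all genes at 0.01, and 13 of 15 were below 0. Some lists of non-neuronal markers were highest in the outer zone, at 2636 CPM for the 5 ensheathing glia genes, 2543 CPM for the 5 vascular and meningeal genes and 1906 CPM for the 4 blood genes. In the granule zone these stood at 715, 723 and 769 CPM. Other lists were not highest there. Astrocyte genes stood at 6303 CPM in the outer and 7966 CPM in the plexiform zone. Oligodendrocyte genes stood at 2714 CPM in the outer zone, 3119 CPM in the granule zone and 4406 CPM in the core. The part of these lists in the lower channel levels was not tested. In the granule zone 3 were called, all higher (Cacna1c, Cacna1e and Cacnb3), against 4.24% of all genes called higher. The median there was 0.43 for the channel genes and 0.01 for all genes, and 13 of 15 were above 0. In the plexiform zone Cacnb4 was called higher, against 6.06% of all genes, and in the core Scn3a was called higher, against 2.67%. The medians of the channel genes were -0.17 in the plexiform zone and 0.26 in the core, again beside 0.01 for all genes in each.

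**Figure D1:**
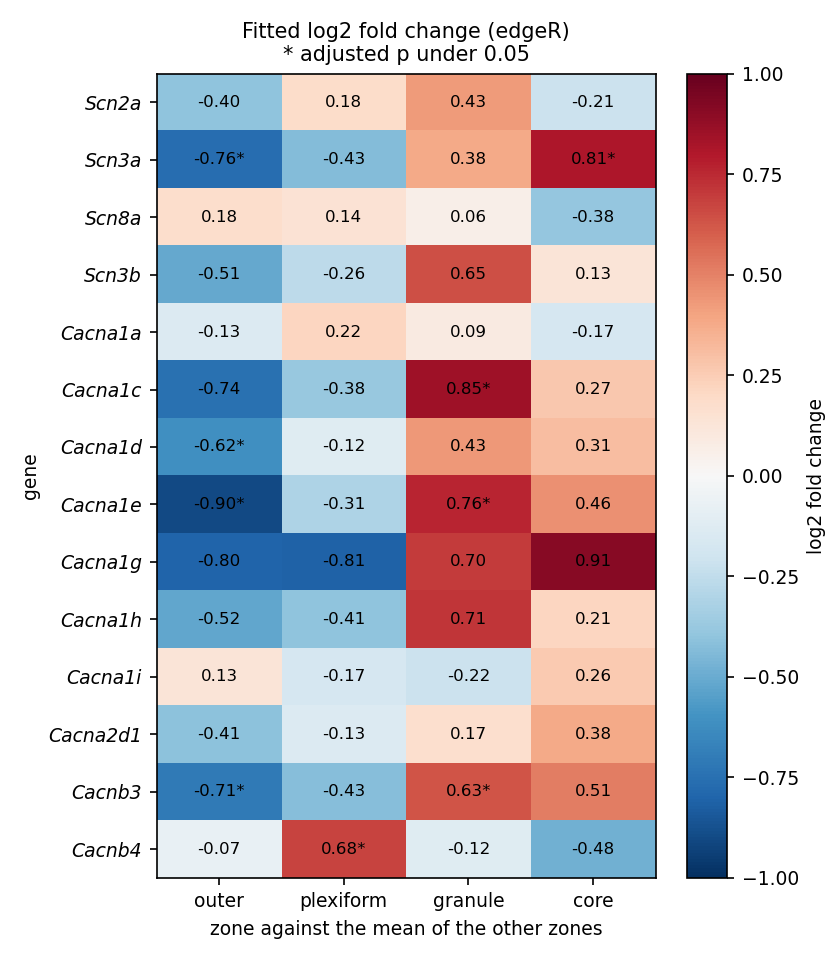
Fitted log2 fold change of 14 tested channel genes (rows) in each zone (columns) against the mean of the other 3 zones, from edgeR; red is higher, blue is lower, and a star marks an adjusted p under 0.05. The outer zone column is below 0 for 12 of these and the granule zone column is above 0 for 12, while Cacnb4 has its highest value, 0.68, in the plexiform zone.

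Summed over all 29 genes, channel transcripts were at 2347 ± 317 CPM in the outer zone, 2794 ± 192 CPM in the plexiform zone, 3483 ± 192 CPM in the granule zone and 3138 ± 78.4 CPM in the core. Every section of the granule zone (3329, 3423 and 3698 CPM) was above every section of the outer zone (2710.0, 2129 and 2202 CPM) and of the plexiform zone (2996, 2775 and 2613 CPM). Within the plexiform zone EPL was low, at 2631 ± 267 CPM, but M/T was not, at 3533 ± 190 CPM. M/T was thus level with GCL-E (3534 ± 210 CPM) and GCL-I (3485 ± 305 CPM). Of the 5 classes, the pore-forming calcium channel subunits differed most in CPM between the outer and granule zones, at 823 ± 199.8 CPM in the outer zone, 876 ± 98.1 in the plexiform zone, 1362 ± 56.6 in the granule zone and 1237 ± 66.2 in the core. By region, the same 10 genes stood at 1363 ± 34.5 CPM in IPL, 1358 ± 218 in GCL-E and 1376 ± 146 in GCL-I, and at 881 ± 277 in M/T. Sodium channel alpha subunits were instead highest on average in the mitral layer, at 833 ± 182 CPM. They stood at 713 ± 299 CPM in GCL-E, 655 ± 138 CPM in GCL-I and 328 ± 33.9 CPM in ONL. Their mitral sections (634, 991 and 875 CPM) lay above those of ONL. These overlapped those of GCL-E (369, 896 and 875 CPM) and GCL-I (545, 610.4 and 809 CPM). Calcium channel beta subunits were also highest on average in the mitral layer, at 989 ± 298 CPM. In section 3, however, they stood at 843 CPM there and at 909 CPM in IPL. These sums are descriptions, with no test.

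**Figure D2:**
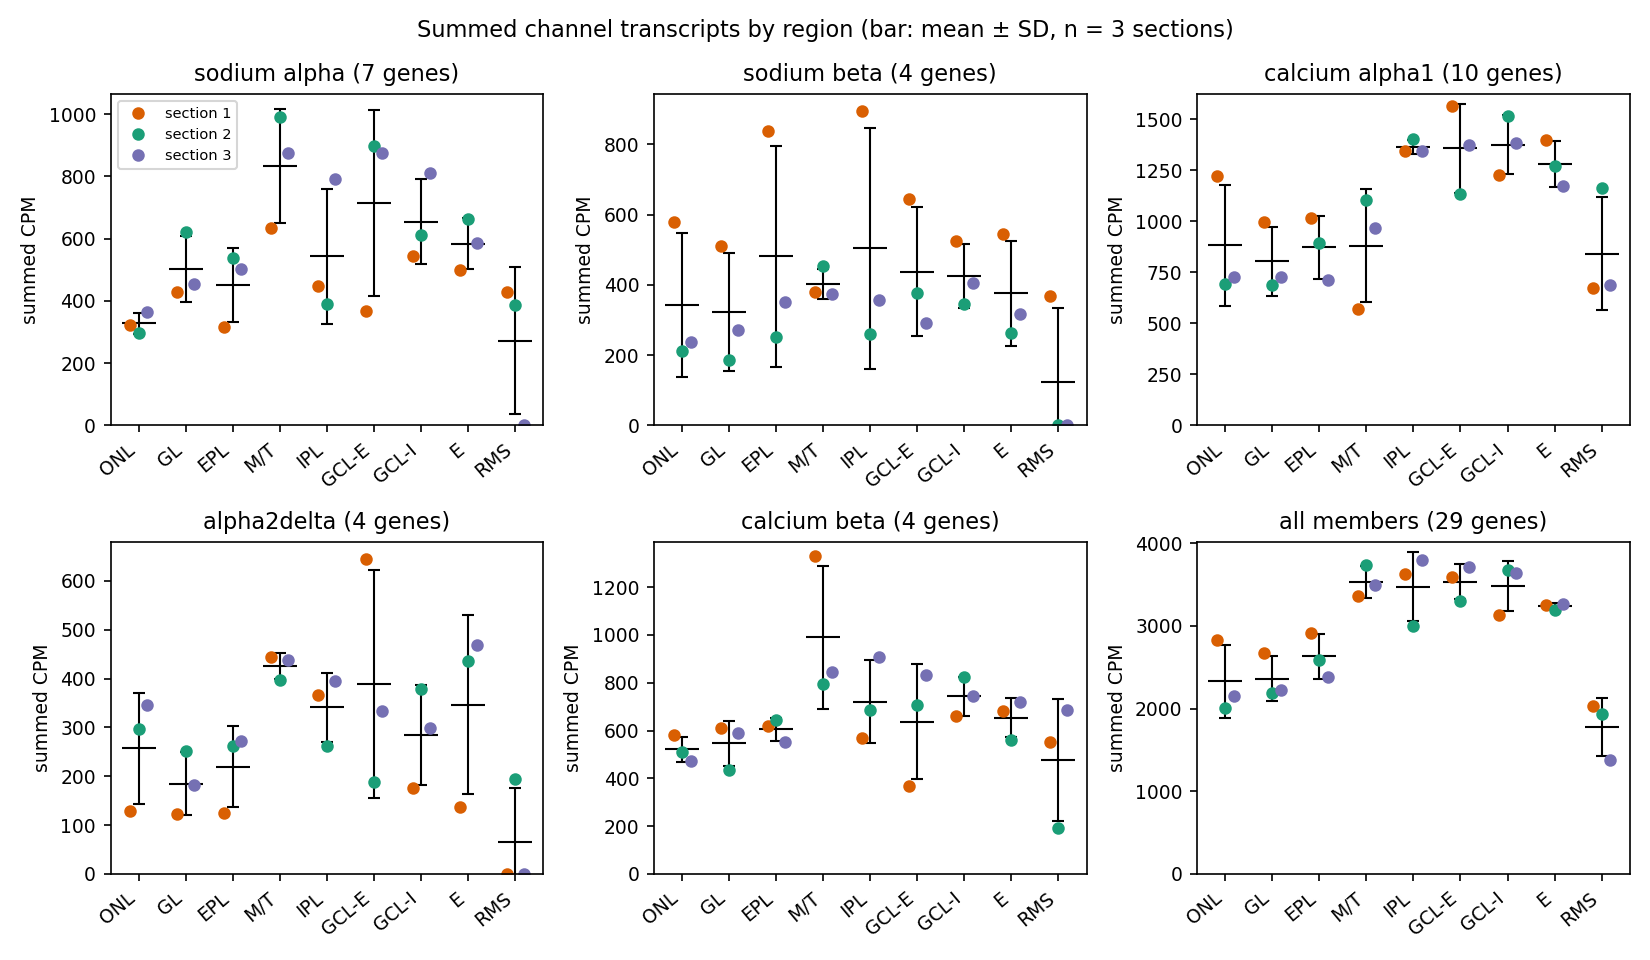
Summed CPM (vertical axes, from 0) of each subunit class and of all 29 genes in the 9 regions from outside to inside; points are sections, and bars are the mean ± SD of 3 sections. The calcium channel alpha1 panel steps up between M/T (881 CPM) and IPL (1363 CPM), whereas the sodium channel alpha panel has its highest mean in M/T (833 CPM). The RMS points of all 29 genes rest on 45 counts.

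Among the pore-forming calcium channel subunits, Cacna1e was the gene with the most calls. It encodes the R-type channel (chromosome 1, 154390731 to 154884501, minus strand, mm10). In sections 1, 2 and 3 it stood at 92.9, 104 and 144 CPM in the outer zone, 181, 174 and 127 CPM in the plexiform zone, 288, 276 and 353 CPM in the granule zone and 249, 249 and 278 CPM in the core. All granule and core values were above all outer and plexiform values. It was lower in the outer zone by a log2 fold change of -0.90 (SE 0.23, adjusted p = 0.00155) and higher in the granule zone by 0.76 (SE 0.21, adjusted p = 0.00746), each in 3 of 3 sections. Without sections 1, 2 and 3 in turn, the adjusted p was 0.00871, 0.151 and 0.0122 in the outer zone and 0.0343, 0.0599 and 0.175 in the granule zone.

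By region, Cacna1e was lowest in the glomerular layer, at 81.6, 113 and 98.3 CPM, and highest in the internal granule cell layer, at 311, 379 and 362 CPM. These sections did not overlap. Its glomerular value was 0.42 times the mean of the other 8 regions (97.5 against 232 CPM, log2 fold change -0.996, SE 0.29, adjusted p = 0.0118). Its internal granule value was 1.75 times that mean (351 against 201 CPM, log2 fold change 0.84, SE 0.27, adjusted p = 0.0478). Of the regions between, EPL was low too, at 143 ± 54.7 CPM. M/T at 234 ± 68.3, IPL at 241 ± 102 and GCL-E at 281 ± 122 CPM differed from each other by less than their spread. Without section 1, 2 or 3 the adjusted p was 0.0618, 0.0788 and 0.270 in GL and 0.0805, 0.476 and 0.128 in GCL-I, and with RLE scaling it was 0.0587 in GCL-I. Granule cell markers were likewise highest in GCL-I, at 8707 CPM. They were low in GL (4197 ± 379 CPM), EPL (4235 ± 528 CPM) and ONL (4385 ± 777 CPM), which overlapped, and their part in this result was not tested.

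Cacna1c and Cacna1d encode the L-type pores of brain, which carry slow, long-lasting calcium currents. Cacna1c (chromosome 6, 118587240 to 119196418, minus strand) stood at 161, 258 and 135 CPM in the granule zone, against 92.9, 85.7 and 58.8 CPM in the outer zone and 67.8, 105.5 and 89.0 CPM in the plexiform zone. The granule values lay above all of these, and overlapped the core (134, 184 and 81.8 CPM). Its log2 fold change in the granule zone was 0.85 (SE 0.27, adjusted p = 0.0258), and the adjusted p was 0.0521, 0.459 and 0.106 without sections 1, 2 and 3. It was also lower in the plexiform than in the granule zone, by a log2 fold change of -0.92 (SE 0.32, adjusted p = 0.0428), which was 0.0974, 0.514 and 0.0831 without these sections.

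Cacna1d (chromosome 14, 30039939 to 30491455, minus strand) was lower in the outer zone, at 139, 126 and 187 CPM, than in the mean of the other zones (log2 fold change -0.62, SE 0.21, adjusted p = 0.0378). The granule zone held 207, 302 and 280.5 CPM, and the core 105, 314 and 343 CPM, so that section 1 of the core lay below every outer value. The adjusted p was 0.00982, 0.747 and 0.165 without sections 1, 2 and 3, and without section 2 the log2 fold change was -0.29. The 3' end of Cacna1d lies within 1 kb of Chdh on the other strand, and the sources used here do not say whether counting used strand. Chdh had 7 counts, against 301 for Cacna1d.

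The other pore-forming calcium channel genes gave no call with TMM scaling. Cacna1a, the P/Q-type pore that drives transmitter release, was nearly level, at 168 ± 56.0, 202 ± 51.9, 195 ± 20.5 and 171 ± 20.7 CPM from the outer zone to the core. Cacna1g, Cacna1h and Cacna1i encode the T-type pores, which open near rest. Cacna1g stood at 52.3 ± 14.1 and 49.3 ± 15.3 CPM in the outer and plexiform zones and at 121 ± 15.5 and 133 ± 37.3 CPM in the granule zone and core. Its sections did not overlap between these pairs, but on 118 counts its log2 fold change between the plexiform and granule zones, -1.13, had an adjusted p of 0.0562. With library sizes as the only scaling it was called (-1.26, adjusted p = 0.0270). Cacna1h stood at 159.7 ± 46.9 CPM in the granule zone and 79.6 ± 46.4 CPM in the plexiform zone (adjusted p = 0.118), and Cacna1i at 107 ± 27.2 and 96.4 ± 14.4 CPM (adjusted p = 0.966). Cacna1b, the N-type pore, had 38 counts, and Cacna1f and Cacna1s, pores best known from retina and skeletal muscle, had 1 and 4.

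**Figure D3:**
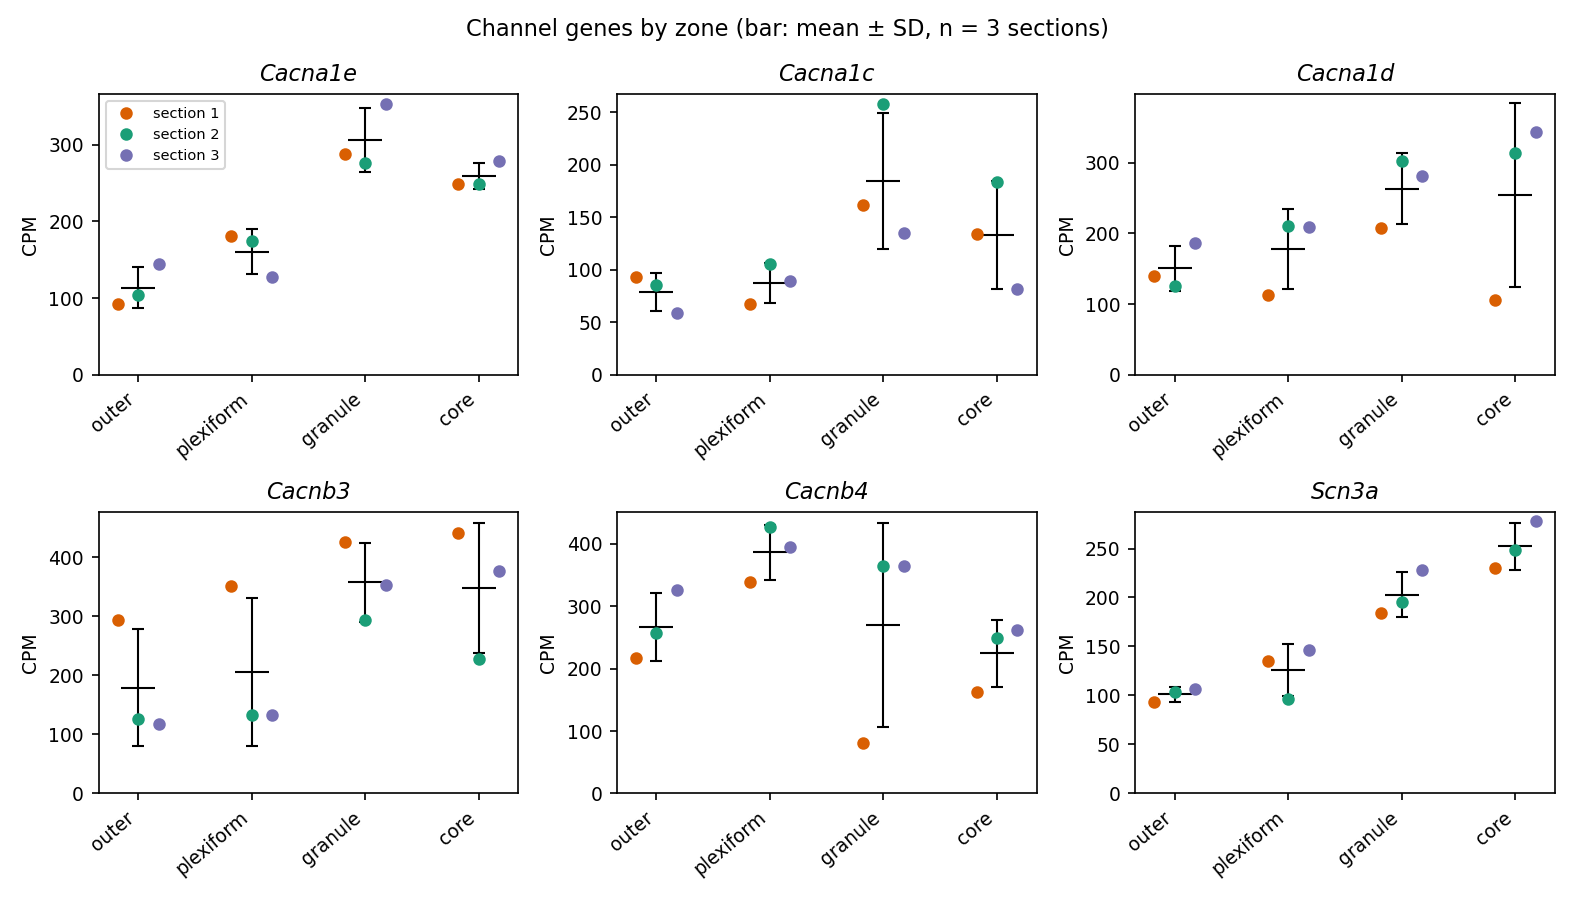
CPM (vertical axes, from 0) of the 6 channel genes called in the zone fit, by zone from outside to inside; points are sections, and bars are the mean ± SD of 3 sections. Cacna1e and Scn3a step up from the outer to the granule zone in each section, while Cacnb4 is highest in the plexiform zone on average (387 CPM) and section 1 of its granule zone lies apart at 80.6 CPM.

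The beta subunits of calcium channels bind the pore from inside the cell. Cacnb3 (chromosome 15, 98630840 to 98644529, plus strand) stood at 426, 293 and 353 CPM in the granule zone and 441, 227 and 376 CPM in the core. The outer zone held 294, 126 and 118 CPM and the plexiform zone 350.4, 133 and 133 CPM. Section 1 was the highest section in each zone, so the zones overlapped, but within every section the granule value was above the outer and the plexiform one. It was higher in the granule zone (log2 fold change 0.63, SE 0.19, adjusted p = 0.0182) and lower in the outer zone (-0.71, SE 0.20, adjusted p = 0.00796). Without sections 1, 2 and 3 the adjusted p was 0.0160, 0.243 and 0.334 in the granule zone, and 0.00882, 0.107 and 0.311 in the outer zone. Without spots near another region the log2 fold change was 0.36 in the granule zone (adjusted p = 0.643) and -0.47 in the outer zone (adjusted p = 0.315).

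Cacnb4 (chromosome 2, 52428320 to 52676831, minus strand), had 463 counts, the most of any channel gene. It stood at 339, 427 and 394 CPM in the plexiform zone, above all outer (217, 257 and 326 CPM) and core values (163, 249 and 262 CPM). The granule zone was split, at 80.6 CPM in section 1, on 7 counts, and at 365 and 364 CPM in sections 2 and 3. Cacnb4 was higher in the plexiform zone by a log2 fold change of 0.68 (SE 0.16, adjusted p = 8.31e-04), and the adjusted p was 0.0145, 0.0868 and 0.0120 without sections 1, 2 and 3. Without spots near another region the log2 fold change was 0.41 (adjusted p = 0.306). By region it was 361 ± 69.2 CPM in EPL, where it was called (log2 fold change 0.57, SE 0.19, adjusted p = 0.0275), and 498 ± 73.1 CPM in M/T, where it was not (adjusted p = 0.205). Without sections 1, 2 and 3 the adjusted p in EPL was 0.0457, 0.407 and 0.0814, and it was 0.280 with library sizes as the only scaling and 0.0540 without RMS. Mitral and tufted cell markers were high in the same regions, at 3540 CPM in M/T and 3073 CPM in EPL, against 795 CPM in GCL-I. They also stood at 2389 CPM in GL, where Cacnb4 was at 272.5 ± 76.8 CPM and not called (adjusted p = 0.919). Astrocyte markers were high in EPL (8842 CPM) but not in M/T (4005 CPM). The part of either list in the result was not tested. The 3' end of Cacnb4 lies within 1 kb of A430018G15Rik on the other strand, which had 1 count.

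Cacnb1 and Cacnb2 did not pass the filter. Cacnb2 had 69 counts and stood at 70.3 ± 10.2 CPM in the outer zone and 21.3 ± 11.6 CPM in the core, with outer values of 77.4, 58.6 and 74.8 CPM above all core values (9.58, 21.6 and 32.7 CPM). Cacnb1 had 63 counts and stood at 23.6 ± 12.0 CPM in the outer zone and 65.1 ± 10.3 CPM in the granule zone. These values carry no test.

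The direct comparison of the plexiform with the granule zone asked how the layer of mitral dendrites and cell bodies differs from the layers of granule cells. Of 15 tested channel genes 4 were called, against 11.6% of all genes in either direction. Cacnb4 was higher in the plexiform zone by 0.60 (log2 fold change, SE 0.21, adjusted p = 0.0373). Cacnb3 was lower, with a log2 fold change of -0.79 (SE 0.23, adjusted p = 0.00972), as were Cacna1e, with -0.80 (SE 0.25, adjusted p = 0.0180) and Cacna1c as given above. The median of the channel genes was -0.41, with all genes at -0.0031. Without section 1 the adjusted p was 0.396 for Cacnb4, 0.00453 for Cacnb3 and 0.0360 for Cacna1e. Without section 2 it was 0.127, 0.181 and 0.0534, and without section 3 it was 0.0779, 0.316 and 0.408, in the same order. The log2 fold change of Cacnb4 was 0.33 without section 1 and 0.22 without spots near another region (adjusted p = 0.791), and with library sizes as the only scaling its adjusted p was 0.153.

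Sequences before a start of Cacnb4 and of Cacna1c are shown because these genes were called in opposite directions between the plexiform and granule zones, and because no annotated exon of a channel gene lies in the window. Each is the 250 bases before a RefSeq start (GRCm38.p6), read 5′ to 3′ on the strand of the gene, at chr2:52558612-52558861 for Cacnb4 and chr6:118757975-118758224 for Cacna1c, both on the minus strand. Both windows lie inside the span of their gene, before an internal start, and RefSeq gives each gene 3 starts. The counts do not say which start was used. Capitals mark letters that match a searched motif on either strand.
Cacnb4: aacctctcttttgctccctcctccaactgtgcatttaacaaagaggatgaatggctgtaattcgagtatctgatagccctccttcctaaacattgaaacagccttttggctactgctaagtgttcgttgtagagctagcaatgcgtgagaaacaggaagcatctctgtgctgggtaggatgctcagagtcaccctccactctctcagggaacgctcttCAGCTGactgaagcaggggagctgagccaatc
Cacna1c: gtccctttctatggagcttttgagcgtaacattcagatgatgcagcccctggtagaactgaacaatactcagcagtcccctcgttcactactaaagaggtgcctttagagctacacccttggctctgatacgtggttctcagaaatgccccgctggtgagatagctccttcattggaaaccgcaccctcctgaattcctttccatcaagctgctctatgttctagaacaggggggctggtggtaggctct
The motifs searched were the GC box GGGCGG, the TATA box TATAAA, the cAMP response element core TGACG, the left and right parts of RE1, CAGCACC and GGACAG, and the E box CAGCTG. The Cacnb4 window holds the E box, as do 13.0% of 32851 RefSeq windows of this length. The Cacna1c window holds none of these letters, and TATAAA, for comparison, is in 12.4% and GGGCGG in 32.7% of windows. The windows hold 4 and 5 CpG, beside a median of 6 in all windows. Promoters of 21 of the 29 genes were found in the RefSeq table.

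The alpha2delta subunits, extracellular proteins that move calcium channels to the membrane, rested on Cacna2d1, a binding site of gabapentin. Cacna2d1 (chromosome 5, 15934691 to 16374511, plus strand) had 358 counts and stood at 178 ± 73.4, 207 ± 72.0, 269 ± 51.6 and 303 ± 162 CPM from the outer zone to the core. Section 1 was the lowest section in each zone (92.9, 124, 219 and 115 CPM), and no zone was called (smallest adjusted p 0.175, in the outer zone). By region its mitral layer value, 375 ± 33.4 CPM, was the highest (log2 fold change 0.76, adjusted p = 0.291). Without RMS it was called lower in GL (-0.72, adjusted p = 0.0213). Cacna2d2 and Cacna2d3 had 25 counts each and Cacna2d4 had 5, so their layers could not be compared at this depth.

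Among sodium channel alpha subunits, 5 genes (Scn1a, Scn2a, Scn3a, Scn7a and Scn9a) lie in a cluster on chromosome 2. Scn3a (65457118 to 65567627, minus strand), a channel known for its expression in embryonic and young neurons, stood at 92.9, 104 and 107 CPM in the outer zone, 136, 96.3 and 146 CPM in the plexiform zone, 184, 196 and 229 CPM in the granule zone and 230.0, 249 and 278 CPM in the core. The core lay above every section of the other zones, and the granule zone above the outer and plexiform zones. Scn3a was higher in the core by a log2 fold change of 0.81 (SE 0.25, adjusted p = 0.0231) and lower in the outer zone by -0.76 (SE 0.25, adjusted p = 0.0251). Without sections 1, 2 and 3 the adjusted p was 0.0875, 0.217 and 0.139 in the core and 0.0401, 0.126 and 0.298 in the outer zone. The 6 migrating neuroblast genes, all counted, summed to 897 ± 178 CPM in the core and 824 ± 95.2 CPM in the granule zone. They stood at 552 ± 49.4 CPM in the plexiform and 645 ± 30.5 CPM in the outer zone, and their highest region was GCL-E (987 ± 108 CPM). The 6 oligodendrocyte genes summed to 4406 ± 1596 CPM in the core, 2121 ± 637 CPM in the plexiform zone and 2714 ± 391 CPM in the outer zone. Both lists were thus lowest on average in the plexiform zone, and Scn3a in the outer zone. The part of either list in the result was not tested. By region Scn3a was at 258 ± 23.8 CPM in E (adjusted p = 0.105) and at 47.9 ± 41.5 CPM in ONL (adjusted p = 0.103).

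Scn2a (chromosome 2, 65620771 to 65767447, plus strand), which neighbours Scn3a and is a main sodium channel of unmyelinated axons, was not called in any zone. It stood at 138 ± 41.9 CPM in the outer zone and 242 ± 96.5 CPM in the granule zone (adjusted p = 0.280), where section 3 alone held 353 CPM. Its mitral layer value was 282 ± 28.9 CPM (log2 fold change 0.49, adjusted p = 0.583). Scn1a, the third member of the cluster, had 117 counts, 9 of them in section 1, and did not pass the filter. Scn7a had 10 counts. Scn9a, also in the cluster and known from sensory neurons, had 6 counts. Scn8a (chromosome 15, 100869858 to 101045938, plus strand), the channel of nodes of Ranvier and mature axon initial segments, was level over the zones at 125 ± 13.4, 117 ± 9.11, 121 ± 32.2 and 99.8 ± 41.0 CPM (smallest adjusted p 0.615). It was too rarely counted for the region fit, and in the mitral layer, on 20 counts, it stood at 190.3, 255 and 249.9 CPM, above its EPL values of 96.3, 82.1 and 95.8 CPM, with no test.

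Among sodium channel beta subunits, Scn2b, which binds alpha subunits covalently, had 100 counts and did not pass the filter. It stood at 136, 82.6 and 121 CPM in the plexiform zone, above every value of the other zones, which ran from 27.1 CPM to 76.7 CPM. With no filter on low counts it was called in the plexiform zone (log2 fold change 1.23, adjusted p = 0.0199) and in EPL (1.38, adjusted p = 0.00615). The medians of all 19621 genes in those comparisons were 0.10 and 0.57, and in EPL 838 genes were called higher and 1 lower. Without section 1 it passed the filter and was called in the plexiform zone (1.22, adjusted p = 0.0473). Scn3b stood at 242, 187 and 187 CPM in the granule zone, above every outer and plexiform value (170.3 CPM at most), but was not called there (log2 fold change 0.65, adjusted p = 0.0979). By region it was highest in GCL-I, at 251 ± 19.4 CPM (adjusted p = 0.0670). Scn4b had 3 counts.

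Over the 9 regions the calls of channel genes were few. In GL 1 of 13 tested channel genes was called (10.6% of all 1996 genes), in EPL 2 (11.7%) and in GCL-I 1 (3.56%). In ONL (6.61%), M/T (2%), IPL (0%), GCL-E (0.551%), E (2.91%) and RMS (0.902%), edgeR called 0 channel genes, with 1, 2, 2, 0, 3 and 2 at an unadjusted p under 0.05. DESeq2 kept 1 of the 4 region calls, Cacna1e in GL (adjusted p = 0.0323). The RMS comparison rests on 45 counts of channel genes in 3 sections, and the median log2 fold change of all genes there was -0.41, with -1.20 for the channel genes.

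Section 1 differed from the others in the levels of several channel genes over the whole section. Cacnb3 stood at 386 CPM in section 1 (exact 95% Poisson interval 323 to 458, which covers counting error only), against 172 (142 to 207) and 199.9 (163 to 243) CPM in sections 2 and 3. Cacna1h and Cacna1i were also above both other sections there, by intervals that did not overlap, and Cacnb4 and Cacna2d1 were below both. Cacnb4 stood at 198 CPM (153 to 250.4) against 334 and 352 CPM. The make-up of the sections differed too, with 30.3% of the counts of section 1 in the core, against 14.3% and 12.2% in sections 2 and 3, and 18.8% in the outer zone, against 34.4% and 37.3%. Within each of the 4 zones section 1 was also the highest section for Cacnb3, Cacna1h and Cacna1i and the lowest for Cacnb4 and Cacna2d1. For 23 genes the interval of section 1 overlapped with at least 1 other section. Between sections 2 and 3 the intervals of 28 genes overlapped and those of Scn1a did not, at 118 CPM (93.4 to 148) and 61.3 CPM (41.7 to 87.1).

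**Figure D4:**
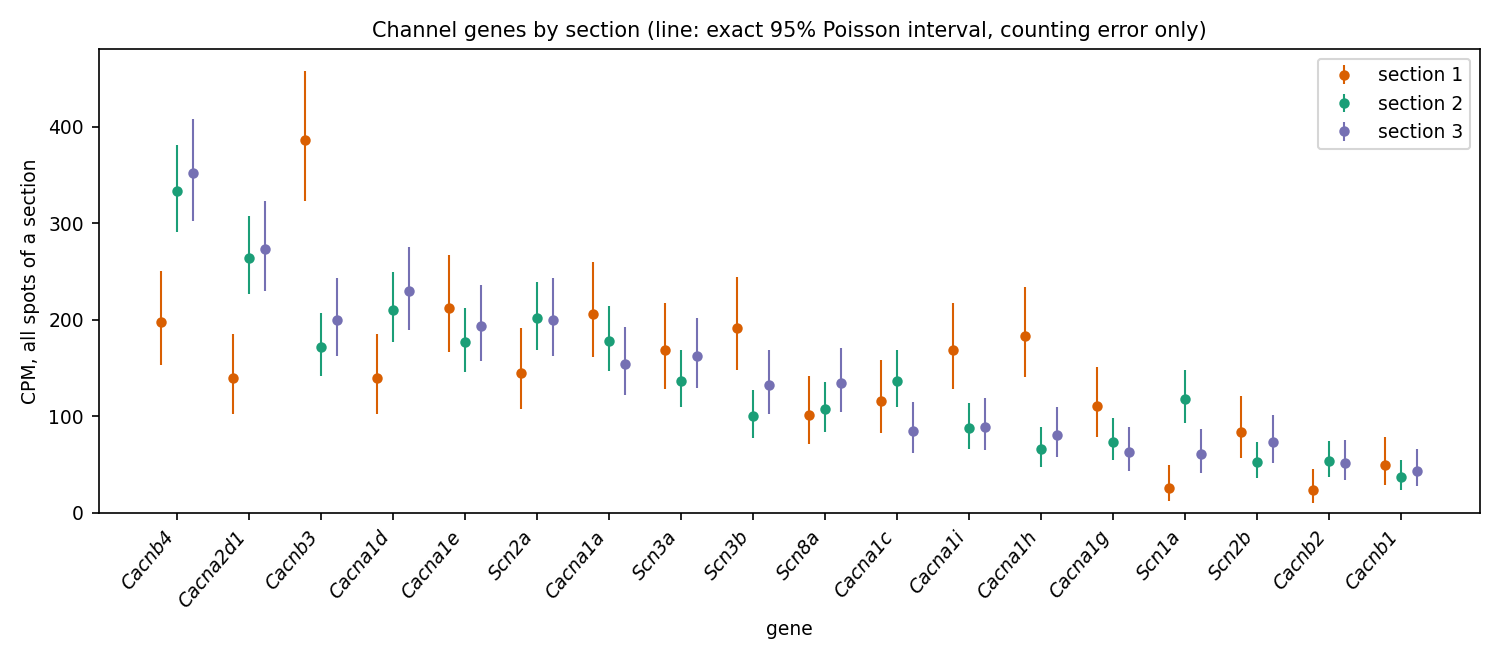
CPM over all spots of a section (vertical axis, from 0) for 18 channel genes with at least 60 counts, ordered by their counts; points are sections and lines are exact 95% Poisson intervals. Section 1 lies above the others for Cacnb3 (386 CPM) and below them for Cacnb4 (198 CPM) and Cacna2d1 (139 CPM).

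The partners of these channels, a list of 27 scaffold, calmodulin, modulatory and release-site genes, were all counted, and 16 passed the filter in the zone fit. Calls came from 4 of the 16. In the outer zone 1 was called lower (5.21% of all genes), in the plexiform zone 2 higher (6.06%), in the granule zone 2 higher (4.24%), and in the core 1 higher (2.67%) and 1 lower (3.3%). In the plexiform against the granule zone 3 were called (11.6% of all genes). Calm2, a calmodulin gene whose product binds sodium and calcium channels, stood at 1958, 1903 and 1922 CPM in the granule zone and 1518, 1046 and 1074 CPM in the outer zone, with no overlap. It was called lower in the outer zone (log2 fold change -0.45, adjusted p = 3.20e-04) and higher in the granule zone (0.36, adjusted p = 0.00871) and the core (0.34, adjusted p = 0.0250). Calm3, another calmodulin gene, had 1590 counts and was not called in any zone.

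Ank3, the ankyrin that anchors sodium channels at the axon initial segment, stood at 484, 916 and 904 CPM in the granule zone and 192, 660.5 and 642 CPM in the plexiform zone. It was called higher in the granule zone (log2 fold change 0.44, adjusted p = 0.0221). Unc80, a subunit of the sodium leak channel complex, was the partner with the smallest adjusted p. It stood at 384, 803 and 915 CPM in the plexiform zone and at 144, 454 and 425 CPM in the core, and was called higher in the plexiform zone (log2 fold change 0.96, adjusted p = 6.32e-11) and lower in the core (-0.62, adjusted p = 0.0172). By region it was called higher in EPL (0.92, adjusted p = 7.13e-07) and M/T (0.86, adjusted p = 0.0241). Nfasc, an adhesion protein of the initial segment and node, was called higher in the plexiform zone, at 155 ± 32.4 CPM against 92.4 CPM in the mean of the other zones (log2 fold change 0.76, adjusted p = 0.0485). The pore of the leak channel, Nalcn, and the fibroblast growth factor homologues Fgf12 and Fgf13 were tested and not called in a zone. The zone calls of partners also depended on the model. With no section term, edgeR called 0 of all genes lower in the outer zone and 0 in either direction in the other zone comparisons, so these calls were lost. The other alternatives are not given for the partners.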

How the data were processed

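Per the labels, poly(A) RNA was captured on spatial arrays from 3 sections, each 1 sample. The authors deposited whole-number counts per spot and gene, which summed to 344372, 650890 and 505710 per section, and a table of spot positions and regions, per the file headers. The submitters' processing notes name mm10 as build. The aligner, the counter and whether molecular identifiers were collapsed are not given in the sources used here, nor is how regions were drawn.

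Each count was given its region through the pixel position of its spot (100% of entries). Counts without a gene name (0.0325%, 0.0764% and 0.0801%) were left out, as were spots whose region is unknown. Counts were summed into 27 region sums (1456 to 182699 counts) and 12 zone sums (61151 to 221719), which limit the precision. Sums were fitted with edgeR 4.0.16 (R 4.3.3) by quasi-likelihood, with section and region or zone in the model, TMM scaling and filterByExpr with a minimum of 10 counts, which left 1996 and 3301 genes. Each region or zone was set against the unweighted mean of the others, with Benjamini-Hochberg adjustment within a comparison. The SE of a log2 fold change is its size over the square root of the F statistic. Deviations from group means correlated at 0.405 within sections and -0.180 between them for regions, and at 0.584 and -0.245 for zones.

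On simulated counts with 200 changed genes, a fold of 2 was recovered for 83% (GCL-I, 1996 genes) and 86% (granule zone, 3301 genes), and a fold of 4 for 100% in each. Of the calls, 5.67% and 5.10% were false. The counts were drawn with the spread fitted to these data, and the changed genes were drawn from all tested genes. These values therefore do not give the recovery for channel genes. Alternatives were RLE scaling, library sizes alone, no filter, no section term, each section left out, DESeq2 1.42.0, spots joined by name, no spots closer than 5 array positions to another region, and no RMS. Named genes were all those called, the 3 most counted of each class and, of the partners, those called and the 3 most counted; others are given by count or range, and any further gene was picked with its values in view. The members, gene lists and zones were chosen with earlier results of these data known. Some genes that this rule names are not reported here by name, and counts over lists include them. Gene positions are from GENCODE M21, in which all 29 symbols were found. Tables were made with Python 3.11.15, numpy 2.4.6, pandas 2.3.3 and scipy 1.17.1, and figures with matplotlib 3.10.9.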

Additional observations from a re-analysis of the deposited data

Results flagged for a closer look

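Spots without a named region are outside all comparisons, and they held counts of channel genes above the 3 counts that a count of 0 allows. There were 13 such counts in section 2, at 2281 CPM of those spots (exact 95% Poisson interval 1215 to 3901, counting error only), and 14 in section 3, at 4076 CPM (2228 to 6838). Over all spots the channel genes stood at 2712 and 2751 CPM in these sections, within both intervals.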

How the results depend on the processing

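Over the 9 region comparisons there were 4 calls of channel genes. There were 2 with RLE scaling, 1 with DESeq2 and 0 without the replicate block, that is, with no section term (edgeR, 8 at an unadjusted p under 0.05). Without spots near another region (3 channel genes tested) there was 1, Cacnb3 in E, which was not among the 4. In that comparison 368 of all 831 genes were called higher and 0 lower, and the median log2 fold change of all genes was 1.09. Leaving out a section gave between 0 and 1. Over the 5 zone comparisons there were 13 calls. There were 3 with no filter on low counts (19621 genes tested), 2 with DESeq2, 3 without spots near another region (12 channel genes tested) and 0 without the replicate block (12 at an unadjusted p under 0.05). Leaving out a section gave between 0 and 10. The other settings stayed within 1.5 times these counts, but a like count did not mean the same calls. With library sizes alone there were 4 region calls, of which 2 were among those of the main fit. Of 181 values of the 17 calls under these 11 alternatives, 82 kept the call, 99 lost it and 0 changed direction. All of them reuse the same counts, so the kept direction is no separate support. The cause was not tested. Some settings held fewer spots or sections, whereas DESeq2 and the fit with no section term were given the same genes, spots and sections as the main fit. DESeq2 gave no adjusted p for Scn3a in the core, and that value is counted among the 99 that lost the call. Sums of few counts limit all of this, most of all in RMS.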
